A study of Mus musculus with 2 samples.

Results

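Natural killer (NK) cells without Itga1 transcripts were picked out of the cells of CT26 tumours, a mouse colon carcinoma line grown in BALB/c mice, by a gate on deposited counts of unique molecular identifiers (UMIs). A UMI counts 1 captured transcript molecule. A barcode entered the gate when it had at least 200 genes, at least 1000 UMIs and at most 10% mitochondrial UMIs, at least 1 Ncr1 UMI, no Cd3e, Cd8b1 or Itga1 UMI, at least 1 UMI of Itga2 or Eomes, and at most 1 UMI of Csf1r and Adgre1 together. Barcode sequences found in both libraries numbered 30, of which 5 were NK cells in PTIR1 and none in mock. The members were thus selected on measured counts of these genes, which are given below as description only. The gate held 654 of the 19839 deposited barcodes, 388 in the PTIR1 library and 266 in the mock library. The study has 1 library from tumours labelled PTIR1-expressing and 1 library from tumours labelled mock, both of the BALB/c strain and prepared with a 3' single-cell kit. The series title describes PTIR1 as a suppressor of the immunoproteasome, the form of the proteasome that trims peptides for MHC class I. The labels name the sample source as tumour infiltrating lymphocytes and do not give the number of mice, the day of harvest or the sorting. With 1 library for each genotype there was no replicate check and no test: PTIR1 expression, the mice, the tumours and the library preparation cannot be told apart. Intervals are exact 95% intervals that cover counting error only, and levels are UMIs per 1000000 UMIs summed over the cells of a gate (CPM).

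NK cells kill target cells by releasing perforin and granzymes from granules or through death ligands such as Fas ligand, and they are held in check by inhibitory receptors that read MHC class I on other cells. They also secrete interferon gamma and chemokines that attract dendritic cells and T cells into tumours. Conventional NK cells circulate, depend on the transcription factor Eomes and carry the integrin Itga2, while type 1 innate lymphoid cells stay in tissue and carry the integrin Itga1. In tumours these states grade into each other.

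The markers bore out the NK part of the label. Ncr1, which encodes the activating receptor NKp46 and was used by the gate, stood at 688 CPM in PTIR1 and 755 CPM in mock NK cells. Klrd1, which encodes CD94 and was not used by the gate, had a UMI in 93.6% of PTIR1 NK cells (90.6 to 95.8%) and in 90.2% of mock NK cells (86.0 to 93.5%). Its level was 631 CPM in PTIR1 and 639 CPM in mock NK cells. B cells, which should lack Klrd1, had a Klrd1 UMI in 6.87% of 699 PTIR1 cells and 7.34% of 368 mock cells at a median of 4631 and 4326.5 UMIs, against median depths of 9162 UMIs in PTIR1 NK cells and 7023.5 UMIs in mock NK cells. With every cell thinned to 1000 UMIs, Klrd1 was found in 47.4% of PTIR1 and 47.7% of mock NK cells, and in 1.9% of PTIR1 and 1.4% of mock B cells. Eomes carried most of the gate. It was the only one of the Eomes and Itga2 pair with a UMI in 250 PTIR1 and 153 mock cells, both were present in 125 PTIR1 and 93 mock cells, and Itga2 alone let in 13 PTIR1 and 20 mock cells.

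The word conventional was borne out less well, because Eomes did not separate the gate from its Itga1 positive neighbours. Among Ncr1 positive cells that had an Itga1 UMI, 79.9% in the PTIR1 library and 77.2% in the mock library also had an Eomes UMI. These Itga1 positive cells were deeper, with a median of 14539 UMIs in PTIR1 and 12643 UMIs in mock. The part of depth in an Itga1 count of 0 was not tested, and shares by depth band are given below. Cells with exactly 1 Itga1 UMI that otherwise passed, just outside the gate, numbered 71 in PTIR1 and 50 in mock, with medians of 13768 and 11875.5 UMIs. Their Ccl5 level was 611 CPM in PTIR1 and 811 CPM in mock, between that of the gate and that of cells with 2 or more Itga1 UMIs, which had 206 CPM in PTIR1 and 120 CPM in mock.

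The Ncr1 limit was sharper. The 41 PTIR1 and 48 mock NK cells with exactly 1 Ncr1 UMI had a Klrd1 UMI in 75.6% and 68.8% of cells. The 147 PTIR1 and 107 mock barcodes that missed the gate only because Ncr1 was 0 had one in 26.5% and 35.5%. At the lower end of depth, 8 PTIR1 and 11 mock cells of the gate had under 1500 UMIs, and only 1 of the 8 and 4 of the 11 had a Klrd1 UMI. Barcodes with Ncr1 but no Itga1, Itga2 or Eomes UMI, the last group the gate leaves out, had a Klrd1 UMI in 25.6% of 328 PTIR1 cells and 32.4% of 247 mock cells, with medians of 3358 and 2081 UMIs.

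Transcripts of other cell types were present in the gate at low levels that differed between the libraries. The summed neutrophil markers were 233 CPM in PTIR1 and 58.3 CPM in mock NK cells, and 452 CPM in PTIR1 and 76.5 CPM in mock B cells. Fibroblast markers summed to 269 CPM in PTIR1 and 113 CPM in mock NK cells, against 427 CPM and 88.6 CPM in PTIR1 and mock B cells. Mast cell markers ran the other way, at 22.8 CPM in PTIR1 and 163 CPM in mock NK cells, and 32.3 CPM in PTIR1 and 110 CPM in mock B cells. Macrophage markers summed to 867 CPM in PTIR1 and 975 CPM in mock NK cells, against 1699 CPM in PTIR1 and 2019.7 CPM in mock B cells. Of the T cell receptor genes, Trbc1 had a UMI in 93% of PTIR1 and 93.2% of mock NK cells and Trdc stood at 295 CPM in PTIR1 and 244 CPM in mock, while Trac stood at 8.05 CPM and 9.47 CPM. Cd3e and Cd8b1 were at 0 by the gate, and the 9 markers of other innate lymphoid cells summed to 20 CPM in PTIR1 and 23.9 CPM in mock NK cells. Among these Il23r, Il22, Il5 and Il13 had no UMI, while Il1rl1 had 25 UMIs in PTIR1 and 51 in mock, Areg 40 in PTIR1 and 6 in mock, Il1r1 26 in PTIR1 and 6 in mock, and Il17rb 1 in PTIR1 and 0 in mock.

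NK cells made up a larger share of the kept barcodes in the PTIR1 library as counted. They were 388 of 6570 kept barcodes in PTIR1 (5.91%, 5.35 to 6.50%) and 266 of 6642 in mock (4%, 3.55 to 4.50%), a ratio of 1.47 (1.27 to 1.72, a normal approximation on the log scale). Among Ncr1 positive cells that met the gate's limits on Cd3e, Cd8b1, Csf1r and Adgre1, they were 42.9% of 905 in PTIR1 and 37.2% of 715 in mock. The ratio was 1.15 (1.02 to 1.30). Itga1 positive cells were 20.9% of these in PTIR1 and 28.3% in mock, a ratio of 0.739 (0.622 to 0.878). When every barcode was thinned to 1000 UMIs before the gate, 90 PTIR1 and 96 mock cells passed, and the NK ratios were 0.948 (0.712 to 1.26) of kept barcodes and 0.834 (0.644 to 1.08) of Ncr1 positive cells, with intervals that include 1.

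The gate's composition moved with depth within each library. Among Ncr1 positive cells with 1000 to under 5000 UMIs, 25.2% in PTIR1 and 28.1% in mock met the NK rule, and 68.0% in PTIR1 and 62.4% in mock had none of Itga1, Itga2 and Eomes. From 5000 to under 10000 UMIs the NK share was 65.7% (58.9 to 72.1%) in PTIR1 and 57.2% (49.5 to 64.7%) in mock. From 10000 to under 20000 UMIs it was 49% (42.5 to 55.4%) in PTIR1 and 35.0% (27.7 to 42.8%) in mock, and the Itga1 positive share was 33.3% (27.4 to 39.6%) in PTIR1 and 55.8% (47.9 to 63.6%) in mock. In that band the intervals of the libraries did not overlap for the Itga1 positive share and overlapped for the NK share. At 20000 UMIs or more the NK share was 36.4% in PTIR1 and 32.1% in mock. The bands were chosen after the values were seen.

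**Figure D1:**
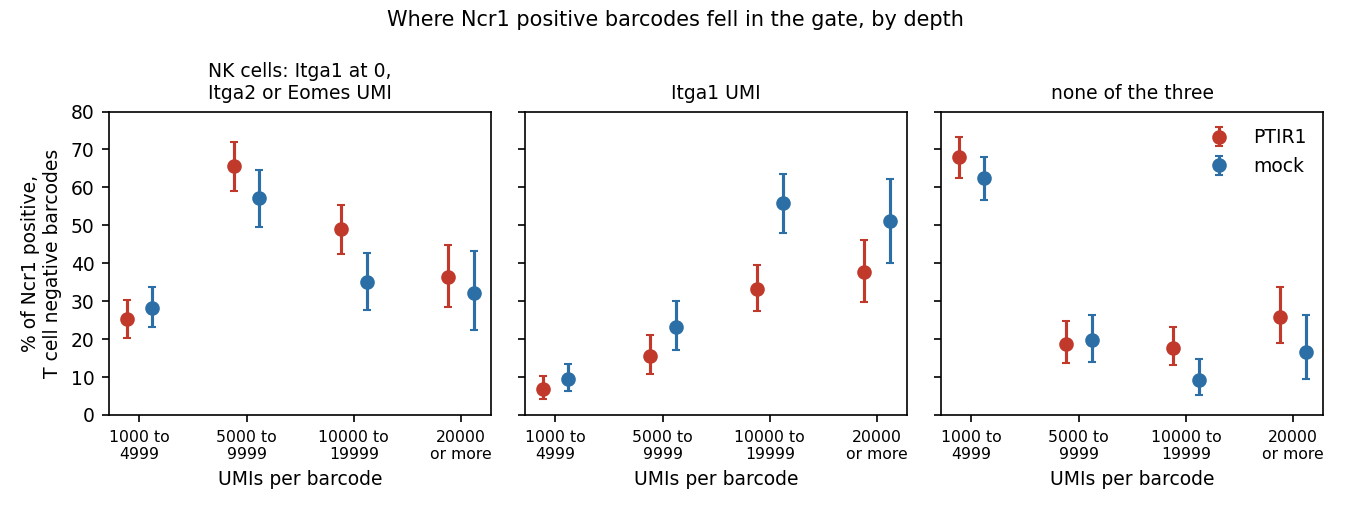
Share of Ncr1 positive, T cell negative barcodes that met the NK rule (left), had an Itga1 UMI (middle) or had none of Itga1, Itga2 and Eomes (right), in percent, by UMIs per barcode; points are the 1 PTIR1 and 1 mock library and bars are exact 95% intervals. T cell negative here means no Cd3e or Cd8b1 UMI, and at most 1 UMI of Csf1r and Adgre1 together was allowed. From 10000 to under 20000 UMIs the NK share was 49% in PTIR1 and 35.0% in mock, and below 5000 UMIs most barcodes of both libraries fell in the right panel.

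The abundant killing genes were at similar or lower levels in PTIR1 NK cells. Gzma, the most abundant granzyme here, stood at 6293 CPM in PTIR1 and 7929.7 CPM in mock NK cells, a ratio of 0.79 (0.78 to 0.81), with a UMI in 95.6% of PTIR1 and 95.5% of mock cells. Gzmb, which cleaves caspases in target cells, stood at 2718 CPM in PTIR1 and 3211 CPM in mock, a ratio of 0.85 (0.82 to 0.87). Prf1, which encodes the pore-forming perforin, stood at 1195 CPM in PTIR1 and 1249.7 CPM in mock, a ratio of 0.96 (0.92 to 1.0). Nkg7, a granule membrane protein needed for degranulation, stood at 1659 CPM in PTIR1 and 1783 CPM in mock. Cell by cell the medians per 10000 UMIs were 57.6 in PTIR1 and 78.6 in mock for Gzma, 18.9 and 25.9 for Gzmb, and 10.7 and 10.6 for Prf1. The core killing genes were thus found in nearly every NK cell of both libraries.

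Granzymes C to G were higher in PTIR1 NK cells, as they were in Itga1 positive cells, and a small group of NK cells held nearly all of them. These 5 genes lie close together on the minus strand of chromosome 14, where Gzmb also lies, and encode proteases that mouse lymphocytes make after strong activation. Gzmc stood at 1151 CPM in PTIR1 and 347 CPM in mock NK cells, a ratio of 3.32 (3.09 to 3.56), with a UMI in 35.6% of PTIR1 and 24.8% of mock cells. Gzmd stood at 249 CPM in PTIR1 and 71.6 CPM in mock, a ratio of 3.48 (2.98 to 4.08), although its share of cells with a UMI was 9.54% in PTIR1 and 9.40% in mock. Gzme stood at 82.2 CPM in PTIR1 and 45.8 CPM in mock, a ratio of 1.79 (1.46 to 2.22). Its share of cells with a UMI was 6.96% in PTIR1 and 7.52% in mock.

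A single cell held most of the Gzmf and Gzmg UMIs of the PTIR1 gate. Gzmf stood at 379 CPM in PTIR1 and 59.5 CPM in mock, but a single PTIR1 cell held 1017 of the 1742 UMIs and a single mock cell 117 of the 157. Gzmg stood at 268 CPM in PTIR1 and 4.17 CPM in mock, with 830 of the 1230 PTIR1 UMIs in the same PTIR1 cell. Without the UMIs of each gene's highest cell in each library, Gzmf stood at 158 CPM in PTIR1 and 15.2 CPM in mock. Gzmg then stood at 87.0 CPM in PTIR1 and 3.41 CPM in mock, so both stayed higher in PTIR1. That cell had 9706 UMIs, of which 2504 (25.8%) were from granzymes C to G. The 5 genes together stood at 2129 CPM in PTIR1 and 528 CPM in mock, a ratio of 4.03 (3.81 to 4.27). Without the highest cell of each library they stood at 1588 CPM in PTIR1 and 428 CPM in mock, a ratio of 3.71 (3.48 to 3.95).

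Cells with at least 50 UMIs of granzymes C to G, a limit set after seeing the values, numbered 31 of 388 in PTIR1 (7.99%, 5.49 to 11.1%) and 7 of 266 in mock (2.63%, 1.06 to 5.35%). They held 94.0% of these UMIs in PTIR1 and 76.0% in mock, while 52.8% of PTIR1 and 57.1% of mock NK cells had none. The granzyme-rich cells were deep, with medians of 18886 UMIs in PTIR1 and 27786 UMIs in mock, against 8691 and 6938 UMIs in the other PTIR1 and mock NK cells. Thinned to 1000 UMIs, a Gzmc UMI was found in 12.1% (9.0 to 15.8%) of PTIR1 and 8.3% (5.3 to 12.3%) of mock NK cells, so the intervals overlapped at equal depth, against 2.0% of PTIR1 and 1.6% of mock B cells. The part of depth in the granzyme difference was not tested beyond this. In these cells Gzmb was about as high as in the rest, with medians per 10000 UMIs of 20.7 in granzyme-rich and 18.9 in other PTIR1 cells, and 29.0 and 25.9 in mock. Their median Ccl5 was 0 in both libraries, against 4.77 in the other PTIR1 and 13.1 in the other mock cells.

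**Figure D2:**
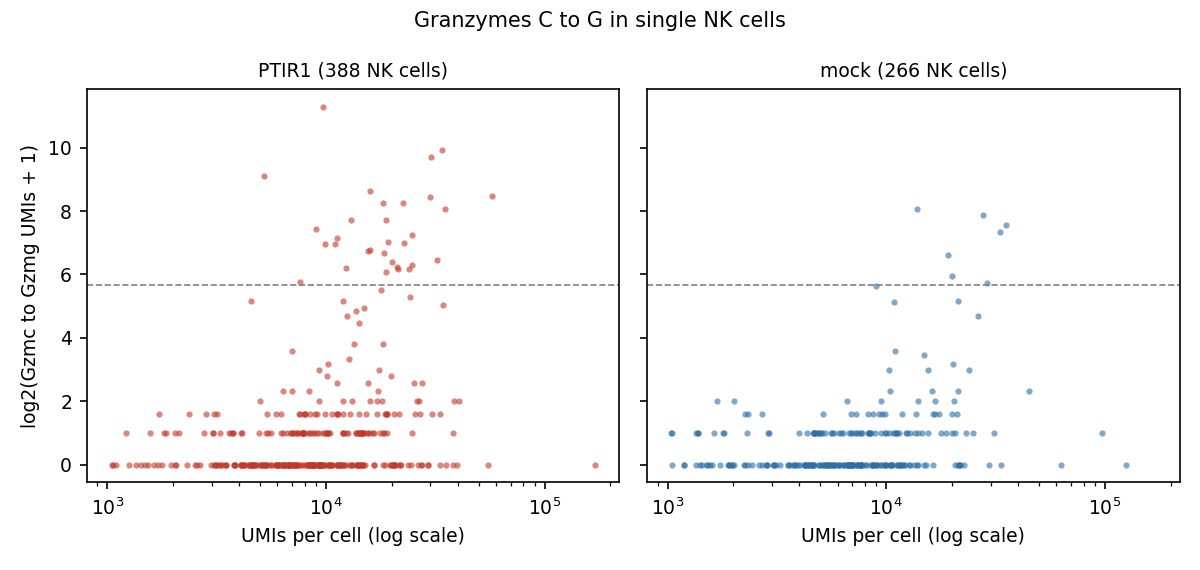
UMIs of Gzmc to Gzmg summed in each NK cell, as log2 of the sum plus 1, against the UMIs of the cell on a log scale, for 388 PTIR1 cells (left) and 266 mock cells (right); the dashed line marks 50 UMIs. Above the line lie 31 PTIR1 and 7 mock cells, with median depths of 18886 UMIs in PTIR1 and 27786 UMIs in mock, and the highest PTIR1 cell holds 2504 of these UMIs.

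The promoters of the 5 genes are shown because the genes differed in the same direction. They are the 200 bases before each RefSeq start on GRCm38.p6, minus strand, read 5′ to 3′, and capitals mark 2 motifs that were searched on both strands after the expression values were seen: AACCACA, the core that Runx factors bind, and TGACGTCA, the cAMP response element.
Gzmc, chr14:56234658-56234857: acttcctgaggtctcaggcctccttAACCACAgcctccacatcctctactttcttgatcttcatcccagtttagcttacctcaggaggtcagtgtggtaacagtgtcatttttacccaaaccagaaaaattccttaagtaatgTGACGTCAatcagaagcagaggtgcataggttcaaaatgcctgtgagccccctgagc
Gzmd, chr14:56132594-56132793: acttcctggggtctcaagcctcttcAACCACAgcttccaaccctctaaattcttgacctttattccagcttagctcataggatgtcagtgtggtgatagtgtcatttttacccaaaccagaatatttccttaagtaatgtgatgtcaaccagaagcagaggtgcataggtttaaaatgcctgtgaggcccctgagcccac
Gzme, chr14:56120626-56120825: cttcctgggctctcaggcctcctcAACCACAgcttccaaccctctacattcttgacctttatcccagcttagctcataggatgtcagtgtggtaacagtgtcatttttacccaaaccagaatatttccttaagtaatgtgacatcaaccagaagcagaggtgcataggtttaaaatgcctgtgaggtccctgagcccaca
Gzmf, chr14:56211408-56211607: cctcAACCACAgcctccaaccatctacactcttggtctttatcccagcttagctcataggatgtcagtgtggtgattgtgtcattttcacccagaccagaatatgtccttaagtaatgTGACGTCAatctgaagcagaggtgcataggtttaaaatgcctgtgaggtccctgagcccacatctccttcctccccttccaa
Gzmg, chr14:56159580-56159779: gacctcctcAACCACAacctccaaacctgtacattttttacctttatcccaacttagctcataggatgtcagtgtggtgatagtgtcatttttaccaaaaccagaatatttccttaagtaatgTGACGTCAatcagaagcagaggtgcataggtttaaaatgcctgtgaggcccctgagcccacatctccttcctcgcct

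The first motif occurred in all 5 windows and in 3.49% of 32851 RefSeq promoter windows of the same length, and the second in Gzmc, Gzmf and Gzmg and in 1.47% of all windows. The window of Gzmb, whose ratio was 0.85, also held the first motif, on the other strand, and not the second. The windows are copies of each other, with 86.9 to 95% identity between pairs, so their motifs are not independent. The transcripts of Gzmd, Gzme, Gzmf and Gzmg are near copies too, with 87.6 to 94.8% identity between pairs and 89.1 to 95.4% over the last 300 bases. Gzmc was less alike, with 76.1 to 77.1% identity to these and 61.9 to 64.9% over the last 300 bases. How the counting split reads among the 5 genes is not given in the sources used here, and values of single genes of the group are uncertain.

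**Figure D3:**
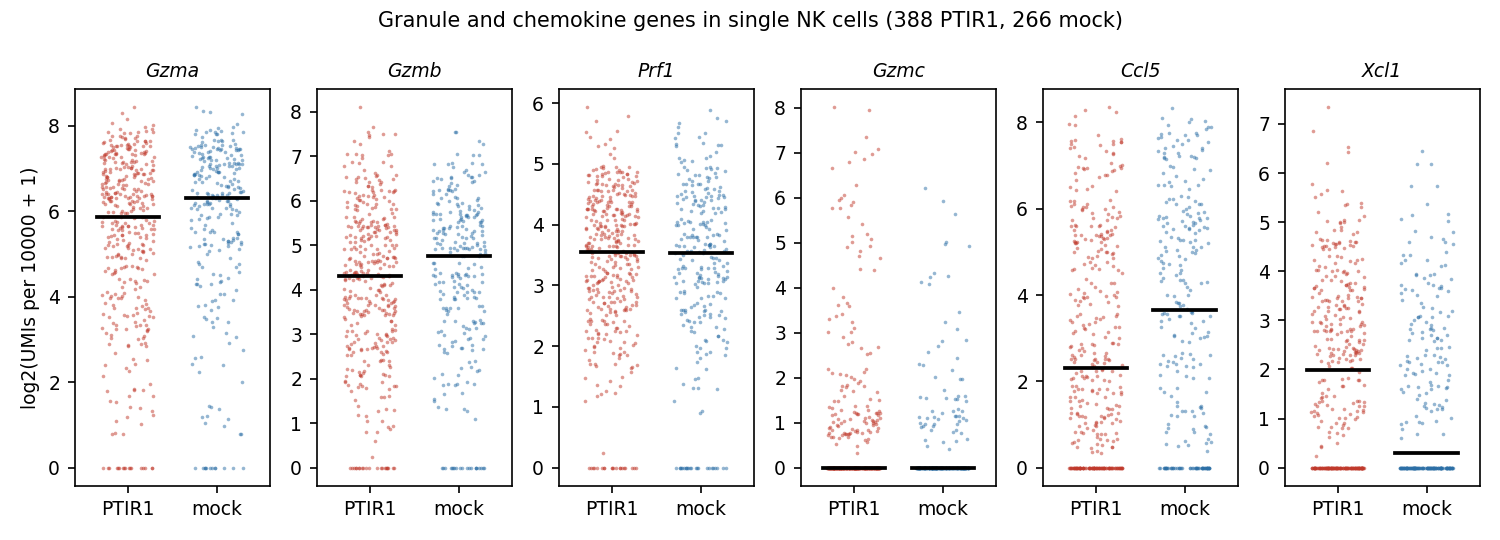
UMIs per 10000 in each NK cell, as log2 of the value plus 1, for 6 genes in 388 PTIR1 cells and 266 mock cells; points are cells and black lines are medians. Gzma, Gzmb and Prf1 fill most cells of both libraries, Gzmc is at 0 in most cells with a tail that is longer in PTIR1, the Ccl5 median is 3.98 in PTIR1 and 11.6 in mock before the log, and the Xcl1 median is 2.97 in PTIR1 and 0.26 in mock.

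Chemokine genes of the gate did not differ in 1 direction between the libraries. Ccl5, which attracts T cells and other leukocytes, stood at 1486 CPM in PTIR1 and 2610.01 CPM in mock NK cells, a ratio of 0.57 (0.55 to 0.59). It was the only one of 13 measured death ligands, cytokines and chemokines past 1.5-fold. No single cell held over 2.44% of the Ccl5 UMIs in either library, and thinned to 1000 UMIs it was found in 46.6% (41.6 to 51.8%) of PTIR1 and 59.0% (52.9 to 65.0%) of mock NK cells. The B cell level of Ccl5 was 24.4 CPM in PTIR1 and 40.3 CPM in mock. Without cells above 40000 UMIs the Ccl5 ratio was 0.52, and with every cell given equal weight it was 0.64. The direction turned, to a log2 ratio of 0.20, when barcodes were thinned to 1000 UMIs before the gate, which left 90 PTIR1 and 96 mock cells.

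Xcl1, a chemokine that draws type 1 dendritic cells, stood at 778 CPM in PTIR1 and 617 CPM in mock NK cells, a ratio of 1.26 (1.19 to 1.34). A Xcl1 UMI was found in 65.2% of PTIR1 and 50% of mock cells, and, thinned to 1000 UMIs, in 34.8% (30.1 to 39.8%) of PTIR1 and 25.6% (20.4 to 31.2%) of mock cells. One mock cell held 19.8% of the mock Xcl1 UMIs, and without it mock stood at 495 CPM. Ccl3 stood at 344 CPM in PTIR1 and 358 CPM in mock, and Ccl4 at 1352 CPM in PTIR1 and 1539.9 CPM in mock, a ratio of 0.88 (0.84 to 0.91). Of these 4 chemokines Xcl1, Ccl3 and Ccl4 were within 1.5-fold in the summed counts. The Xcl1 ratio was 1.47 without cells above 40000 UMIs and 1.55 with every cell given equal weight.

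Cytokines and death ligands were close. Ifng, which encodes interferon gamma, stood at 111 CPM in PTIR1 and 97.4 CPM in mock NK cells, a ratio of 1.14 (0.98 to 1.33), an interval that includes 1. Tnf stood at 26.8 CPM in PTIR1 and 24.6 CPM in mock, also with an interval that includes 1. Fasl, the Fas ligand, stood at 113 CPM in PTIR1 and 145 CPM in mock, a ratio of 0.77 (0.68 to 0.89). Ltb, a lymphotoxin subunit, stood at 485 CPM in PTIR1 and 552 CPM in mock.

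Over all 8542 genes with at least 50 UMIs in the gate, 302 (3.54%) were at least 1.5-fold higher and 358 (4.19%) at least 1.5-fold lower in PTIR1 NK cells, 7.73% in either direction, and the median log2 ratio was -0.06. Centring the ratios on that median gave 390 higher and 265 lower genes, which turns the balance, so shares of higher against lower genes carry no direction here. Against this background, 5 of 21 measured cytotoxic granule genes were past 1.5-fold, all higher and all of granzymes C to G, and the list's median log2 ratio was 0.19. Serpinb9, which protects killer cells from their own Gzmb, stood at 390.2 CPM in PTIR1 and 341 CPM in mock, a ratio of 1.14.

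Receptors that switch NK cells on or off were mostly within 1.5-fold. Of 17 measured activating receptors and adaptors, 1 was past 1.5-fold lower and none higher, with a median log2 ratio of -0.14. That gene was Cd226, the receptor DNAM-1, at 35.7 CPM in PTIR1 and 55.7 CPM in mock, 1.56-fold lower in PTIR1 (1.24 to 1.96). Tyrobp, the adaptor DAP12, stood at a ratio of 1.0 (0.96 to 1.04), and Klrk1, the receptor NKG2D, at 379 CPM in PTIR1 and 409.9 CPM in mock. Of 12 measured inhibitory receptors, 1 was past 1.5-fold higher and none lower, with a median of -0.06. That gene was Klra1 of the Ly49 family, at 37.6 CPM in PTIR1 and 16.7 CPM in mock, a ratio of 2.26 (1.61 to 3.22), with a UMI in 9.28% of PTIR1 and 3.01% of mock cells. BALB/c mice carry another set of Ly49 genes than the reference strain, so which receptor these reads come from is uncertain. Klrc1, which encodes NKG2A, stood at 198 CPM in PTIR1 and 208 CPM in mock, and Klrg1, a marker of mature NK cells, at 39.4 CPM in PTIR1 and 43.6 CPM in mock.

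Of the 20 measured cytokine receptors 1 was past 1.5-fold higher, at a log2 ratio of 0.67, and 3 lower in PTIR1 NK cells. Il7r, the interleukin 7 receptor found on immature NK cells and innate lymphoid cells, had 49 UMIs in 15 PTIR1 cells and 87 UMIs in 30 mock cells, 3.09-fold lower in PTIR1 (2.15 to 4.48). B cells held Il7r at 13.0 CPM in PTIR1 and 14.4 CPM in mock, so the PTIR1 NK level of 10.7 CPM was under that of B cells. Kit, the stem cell factor receptor, stood at 21.8 CPM in PTIR1 and 37.1 CPM in mock, 1.71-fold lower in PTIR1 (1.28 to 2.28). Cish, a suppressor of interleukin 15 signalling, stood at 10.2 CPM in PTIR1 and 25.4 CPM in mock, 2.48-fold lower in PTIR1 (1.68 to 3.69). Bcl2, which keeps NK cells alive downstream of interleukin 15, stood at 365 CPM in PTIR1 and 516 CPM in mock, a ratio of 0.71 (0.66 to 0.76). The interleukin 15 receptor chain Il2rb, at 1010.8 CPM in PTIR1 and 1083 CPM in mock, and Il15ra, at a ratio of 1.0, were close. Among the 3 lower cytokine receptors, Il1rl1 is a mast cell gene whose level in the mock gate was under 5% of that in the highest cell class of that library.

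Maturation and transcription factor genes showed no common shift past 1.5-fold. Of 23 measured NK transcription factors, 20 were lower and 3 higher, but 1 was past 1.5-fold, and the median log2 ratio was -0.13 against -0.06 over all genes. That gene was Tox, needed for NK cell development, at 19.1 CPM in PTIR1 and 29.5 CPM in mock. Tbx21, which encodes T-bet, stood at 38.9 CPM in PTIR1 and 50 CPM in mock, a ratio of 0.78 (0.62 to 0.98). Among immature NK genes Cd27 stood at 68.7 CPM in PTIR1 and 77.7 CPM in mock, and among mature NK genes Itgam stood at 57.0 CPM in PTIR1 and 63.3 CPM in mock. The 15 immature genes held 2 past 1.5-fold, Il7r and Kit, both lower. The 14 mature genes held 1, the mast cell protease gene Cma1, at 17.8 CPM in PTIR1 and 91.3 CPM in mock NK cells and at 11.4 CPM in PTIR1 and 66.7 CPM in mock B cells. Of 17 homing genes 1 was past 1.5-fold higher, Ccr7, whose PTIR1 level was also under 5% of that in the highest cell class. Of 11 tissue residency genes 3 were past 1.5-fold, all lower, with a median log2 ratio of -0.18. Without cells above 40000 UMIs 2 were higher and 2 lower, and the median was 0.06.

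Immediate early genes, which are switched on within minutes by receptor signals and also by tissue dissociation, were mostly higher in PTIR1 NK cells, with 17 of 22 measured members at ratios above 1. The list's median log2 ratio was 0.23, with 5 members past 1.5-fold higher and 3 lower, and the median was 0.06 with every cell given equal weight. Egr1 stood at 215 CPM in PTIR1 and 116 CPM in mock, a ratio of 1.86 (1.63 to 2.12), and Nr4a1, a reporter of antigen receptor and activating signals, at 136 CPM in PTIR1 and 77.3 CPM in mock, a ratio of 1.75 (1.49 to 2.06). Both were higher in other cells of the PTIR1 library too, with Egr1 ratios of 2.30 in B cells, 2.09 in T cells and 3.24 (3.11 to 3.37) in macrophages. Nfkbia, the inhibitor and target of NF-kB, stood at 436 CPM in PTIR1 and 289 CPM in mock, a ratio of 1.51 (1.39 to 1.64), and at ratios of 1.84 in Itga1 positive cells, 1.91 in macrophages and 0.99 in B cells. The heat shock gene Hsph1 stood at 53.5 CPM in PTIR1 and 87.5 CPM in mock, 1.64-fold lower in PTIR1. Genotype and handling of the samples cannot be told apart.

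Few interferon targets were past 1.5-fold. Of 15 measured interferon gamma response genes 12 were lower and 3 higher, with 1 past 1.5-fold and a median log2 ratio of -0.15. Without the barcodes with the highest doublet scores that median was 0.00. Irf1 stood at 81.6 CPM in PTIR1 and 107 CPM in mock, a ratio of 0.76 (0.65 to 0.89). The gene past 1.5-fold was Cxcl9, and a single mock cell held 85 of its 122 mock UMIs. Of 22 measured type I interferon response genes 17 were higher and 5 lower, with 1 past 1.5-fold and a median of 0.17, which was 0.35 without the highest doublet scores and 0.03 with Itga1 positive cells included. Ifi44 stood at 140.3 CPM in PTIR1 and 101 CPM in mock, a ratio of 1.39 (1.21 to 1.61), and Isg15 at 124 CPM in PTIR1 and 92.8 CPM in mock, a ratio of 1.34 (1.15 to 1.56). Isg15 ran the other way in macrophages, at a ratio of 0.82 (0.80 to 0.85).

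The immunoproteasome, the machinery named in the series title, was level in NK cells. Psmb8, Psmb9 and Psmb10, its catalytic subunits, stood at ratios of 0.98 (0.92 to 1.04), 1.02 (0.94 to 1.11) and 0.90 (0.82 to 0.99). Their levels were 673 CPM in PTIR1 and 688 CPM in mock for Psmb8, 329 and 323 CPM for Psmb9, and 239.7 and 267 CPM for Psmb10. None of 5 immunoproteasome, 7 constitutive proteasome and 16 MHC class I presentation genes was past 1.5-fold. H2-K1 stood at 1829 CPM in PTIR1 and 1709.95 CPM in mock, and B2m at a ratio of 1.08 (1.05 to 1.11). These libraries hold immune cells of the host beside tumour cells, and the gate says nothing of the proteasome in the tumour cells that carry PTIR1.

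Metabolic lists were flat with the exception of hypoxia genes. None of 13 glycolysis, 17 oxidative phosphorylation and 10 nutrient uptake genes was past 1.5-fold, with Ldha at a ratio of 1.04 (0.98 to 1.10). Of 11 measured hypoxia genes 3 were past 1.5-fold higher and none lower, with a median log2 ratio of 0.17. Vegfa, the vascular growth factor, stood at 90.3 CPM in PTIR1 and 58.0 CPM in mock, a ratio of 1.56 (1.29 to 1.89), and Ddit4, a brake on growth signalling, at 78.7 CPM in PTIR1 and 48.9 CPM in mock, a ratio of 1.61 (1.31 to 1.99). The hypoxia gene Slc2a1, a glucose transporter, stood at a ratio of 1.0.

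Cell cycle genes depended on 4 very deep cells in each library. Of 24 members, 17 were higher and 7 lower, with a median log2 ratio of 0.04, 1 past 1.5-fold higher and 2 lower. Mki67, a marker of dividing cells, stood at 186 CPM in PTIR1 and 142 CPM in mock, a ratio of 1.31 (1.16 to 1.48). The 4 cells above 40000 UMIs in each library held 7.04% of the PTIR1 and 12.5% of the mock NK UMIs, and without them the median was 0.43, with 22 members higher and 11 past 1.5-fold. Thinned to 1000 UMIs, a Mki67 UMI was found in 7.7% (5.3 to 10.9%) of PTIR1 and 3.0% (1.3 to 5.8%) of mock NK cells, and in 1.7% of PTIR1 and 0.5% of mock B cells. Among apoptosis regulators 1 of 14 was past 1.5-fold, Bcl2a1b, at 86.1 CPM in PTIR1 and 45.5 CPM in mock, but its near copies Bcl2a1a and Bcl2a1d make its counts uncertain.

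**Figure D4:**
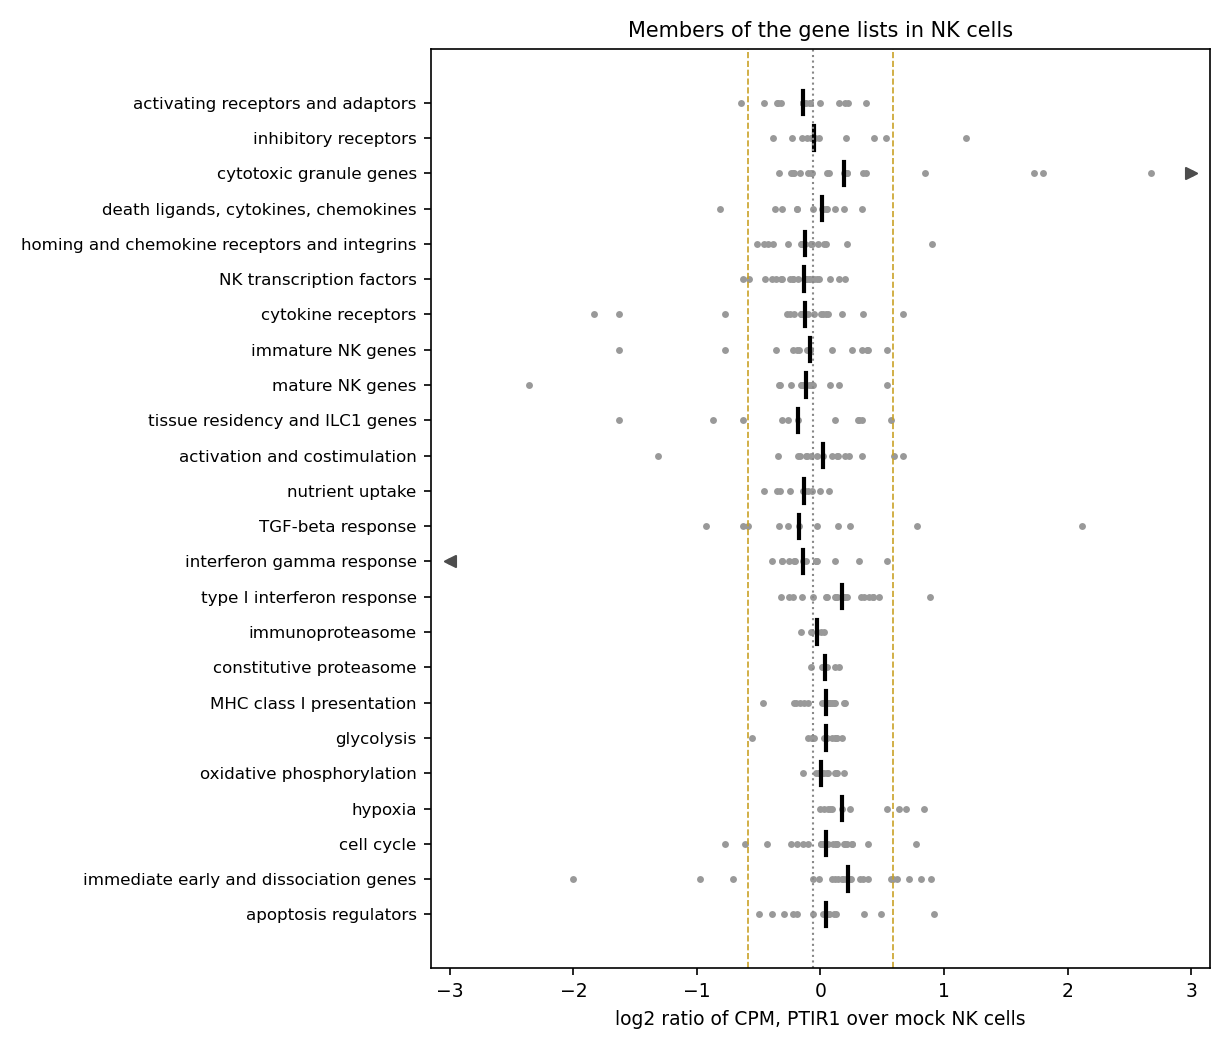
Log2 ratio of CPM in PTIR1 over mock NK cells for measured members of 24 gene lists; grey points are genes, black bars are list medians, the dotted line is the median of all 8542 genes and dashed lines mark 1.5-fold. Arrowheads at the edges stand for Gzmg and Cxcl9, which lie beyond the axis; list medians lie between -0.18 and 0.23, and the immunoproteasome, oxidative phosphorylation and constitutive proteasome genes lie closest together.

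The highest ratios over all genes were mostly of genes that B cells of the PTIR1 library also held. Of the 12 genes highest in PTIR1 by the rule for naming genes, 9 had a B cell level above 1 in 3 of the NK level in the PTIR1 library. They were the matrix and fibroblast genes Mmp3, Mgp, Dcn, Ogn, Apod, Cp, Col3a1, Ccn1 and Rarres2. Mgp stood at 189 CPM in PTIR1 and 6.44 CPM in mock NK cells, and at 232 CPM in PTIR1 and 48.3 CPM in mock B cells. One PTIR1 cell held 520 of the 871 Mgp UMIs, and without the highest cell of each library Mgp stood at 76.3 CPM in PTIR1 and 5.30 CPM in mock NK cells. Mmp3 had 317 UMIs in PTIR1 and 0 in mock NK cells, at least 60.7-fold higher against a floor of 3 UMIs over the mock gate, while the exact interval of the ratio began at 49.1. A pair of PTIR1 cells held 141 and 139 of the 317 UMIs. Mmp3 stood at 23.1 CPM in PTIR1 and 6.33 CPM in mock B cells. The other 3 of the 12 were Gzmf, Gzmc and Gzmd. The part of free RNA in the 9 was not tested.

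The 12 genes lowest in PTIR1 were Cxcl9, Anln, Hspa1a, Il7r, C1qc, Ccnd1, Hmga2, Ccl5, Cish, Ly6e, Ccl6 and Srm. C1qc and Ccl6 are myeloid genes, at 276 CPM and 4074 CPM in mock macrophages, and Ccl6 turned higher in PTIR1 (log2 ratio 0.20) when no Csf1r or Adgre1 UMI was allowed. Hspa1a, a heat shock gene, had 66 UMIs in PTIR1 and 152 in mock NK cells, with 115 of the 152 in 1 mock cell. Anln, a division gene, and Ccnd1 and Hmga2, growth genes that were highest in tumour cells of both libraries, were lower in PTIR1 with all cells, but without cells above 40000 UMIs Ccnd1 and Hmga2 turned higher, by 0.46 and 1.36 on the log2 scale. A pair of mock cells held 58 and 27 of the 117 mock Anln UMIs, and an Anln UMI was found in 5.15% of PTIR1 and 6.39% of mock NK cells.

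A ranking limited to genes at least 3-fold higher in NK cells than in B cells and macrophages of both libraries, set after seeing the values, left 326 genes. Of these 30 (9.2%) were past 1.5-fold higher and 16 (4.91%) lower, and 148 were higher and 178 lower in all. Beside the granzymes, the top of this ranking held Klra1, Rgs16, Rasl11b, Podnl1, Serpinb9b, Myb and Xcl1 and 2 histone genes. Rgs16, which damps chemokine receptor signals, stood at 106 CPM in PTIR1 and 61.7 CPM in mock, a ratio of 1.72 (1.44 to 2.07). Myb, a factor of immature and dividing blood cells, stood at 88.3 CPM in PTIR1 and 61.0 CPM in mock, a ratio of 1.45 (1.20 to 1.75). The bottom held Ccl5, Bcl2, Kit, Cd226 and Gzma, described above, and Pim2, a survival kinase, at 57.9 CPM in PTIR1 and 88.3 CPM in mock, 1.53-fold lower in PTIR1 (1.27 to 1.83). It also held the mitosis genes Kif20a, Cenpf and Prc1, whose ratios without cells above 40000 UMIs were 1.97, 1.94 and 1.71 and so turned over.

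Set against their Itga1 positive neighbours within each library, NK cells held more Ccl5 and Ccl4 and less of granzymes C to G. These were 388 NK and 189 Itga1 positive cells in PTIR1 and 266 NK and 202 Itga1 positive cells in mock. Of 7909 measured genes, 125 (1.58%) were at least 1.5-fold higher and 171 (2.16%) at least 1.5-fold lower in NK cells in both libraries. Because Itga1, Itga2 and Eomes set the gates, their own differences are not results, and depth differs between the gates. Ccl5 stood at 1486 CPM in NK and 419 CPM in Itga1 positive cells of PTIR1, a ratio of 3.55 (3.35 to 3.76), and at 2610.01 CPM in NK and 315 CPM in Itga1 positive cells of mock, a ratio of 8.28 (7.74 to 8.88). Ccl4 was 2.21-fold higher in NK cells of PTIR1 and 6.40-fold higher in NK cells of mock. Thinned to 1000 UMIs, Ccl5 was found in 46.6% of NK and 23.3% of Itga1 positive cells in PTIR1, and in 59.0% of NK and 19.8% of Itga1 positive cells in mock.

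Gzmc stood at 1151 CPM in NK and 3361 CPM in Itga1 positive cells of PTIR1, 2.92-fold lower in NK cells (2.82 to 3.02), and at 347 CPM in NK and 1888 CPM in Itga1 positive cells of mock, 5.44-fold lower in NK cells (5.07 to 5.84). Gzmd, Gzme, Gzmf and Gzmg were also lower in NK cells, by 3.85- to 7.64-fold in PTIR1 and by 6.52- to 19.1-fold in mock. Cells with at least 50 UMIs of granzymes C to G were 7.99% of NK and 25.4% of Itga1 positive cells in PTIR1, and 2.63% of NK and 18.8% of Itga1 positive cells in mock. Thinned to 1000 UMIs, a Gzmc UMI was found in 12.1% of NK and 38.1% of Itga1 positive cells in PTIR1, and in 8.3% of NK and 31.7% of Itga1 positive cells in mock. The difference had the same direction at equal depth.

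Inhibitory receptors were lower in NK than in Itga1 positive cells. Of 14 measured members 6 were past 1.5-fold lower in both libraries and none higher: Klrg1, Cd96, Lag3, Havcr2, Lilrb4a and Pilra. Klrg1 stood at 39.4 CPM in NK and 129 CPM in Itga1 positive cells of PTIR1, and at 43.6 CPM in NK and 109 CPM in Itga1 positive cells of mock. Havcr2, which encodes the checkpoint receptor TIM-3, stood at 6.31 CPM in NK and 24.9 CPM in Itga1 positive cells of PTIR1, and at 3.03 CPM in NK and 21.3 CPM in Itga1 positive cells of mock. Macrophage markers were also lower in NK cells, at 867 CPM against 1276 CPM in PTIR1 and 975 CPM against 2115 CPM in mock. An Itga1 UMI was found in 37.5% of PTIR1 and 39.7% of mock macrophages. The part of macrophage transcripts in the genes lower in NK cells was not tested. Klf2 and Cxcr4 were higher in NK cells of both libraries. Klf2, which keeps lymphocytes in circulation, was 1.91-fold higher in PTIR1 and 2.39-fold higher in mock, and the chemokine receptor Cxcr4 2.59-fold and 3.88-fold higher.

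Of 16 measured activation genes 1 was past 1.5-fold lower in NK cells of both libraries and none higher, and of 11 tissue residency genes 2 were lower and 1 higher. Thy1 was 1.83-fold lower in PTIR1 and 2.64-fold lower in mock, the costimulatory receptor Tnfrsf9 1.83-fold and 1.66-fold lower, and Rgs1, a gene of tissue-resident lymphocytes, 1.68-fold and 1.69-fold lower. Of the core killing genes, Gzma and Prf1 were lower in NK than in Itga1 positive cells of PTIR1 and higher in mock. Gzma stood at 6293 CPM in NK and 7094 CPM in Itga1 positive cells of PTIR1, and at 7929.7 and 6606 CPM in mock. Prf1 stood at 1195 CPM in NK and 1505 CPM in Itga1 positive cells of PTIR1, and at 1249.7 and 1144 CPM in mock. With all cells Gzmb had the same order, a little lower in NK than in Itga1 positive cells of PTIR1 and higher in mock. The PTIR1 order turned without the UMIs of each gate's highest cell, at 2653 CPM in NK and 2629 CPM in Itga1 positive cells. Those cells held 2.36% and 4.78% of the PTIR1 Gzmb UMIs. In mock the Gzmb levels without such cells were 3088 and 2054 CPM. Gzma and Prf1 kept their PTIR1 order by that measure, at 6196 and 1169 CPM in NK against 6858 and 1454 CPM in Itga1 positive cells. The other genes highest in NK cells were Timp1, Tmem108, Oaf, Hes1, Cmah, Pde2a, Igfbp4 and Lgals7. Single cells held 281 of the 402 PTIR1 and 160 of the 315 mock Timp1 UMIs of NK cells, and without them NK cells stood at 26.3 CPM in PTIR1 and 58.7 CPM in mock, against 10.9 CPM in PTIR1 and 34.0 CPM in mock Itga1 positive cells. Hes1, a target of Notch signalling, was 3.61-fold higher in PTIR1 and 4.55-fold higher in mock. Ifitm2, Sema6d, Adam8, Inpp4b and Spp1 were the lowest outside the granzymes.

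**Figure D5:**
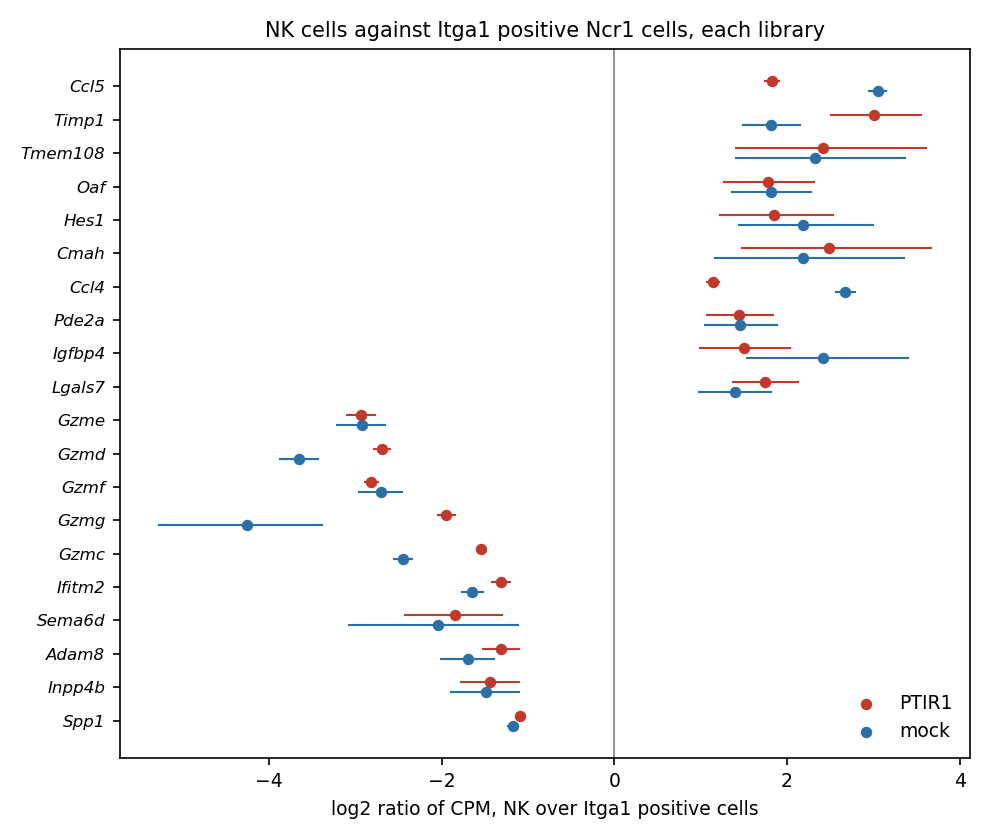
Log2 ratio of CPM in NK cells over Itga1 positive Ncr1 cells for the 10 highest and 10 lowest genes, in the PTIR1 library (388 and 189 cells) and the mock library (266 and 202 cells); points are ratios and lines exact 95% counting intervals. The 5 granzymes C to G lie below 0 in both libraries, and Ccl5 lies at ratios of 3.55 in PTIR1 and 8.28 in mock before the log.

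The barcodes with Ncr1 but none of Itga1, Itga2 and Eomes differed from NK cells far more widely. Of 7706 measured genes, 951 (12.3%) were at least 1.5-fold higher and 1046 (13.6%) at least 1.5-fold lower in NK cells in both libraries, and 15 of 20 cytotoxic granule genes were higher. Gzma was 7.51-fold higher in PTIR1 and 7.85-fold higher in mock NK cells than in these barcodes. B cell markers summed to 1244 CPM in PTIR1 and 873 CPM in mock in these barcodes, against 133 and 109 CPM in NK cells. Macrophage markers summed to 3067 CPM in PTIR1 and 3122 CPM in mock, against 867 and 975 CPM in NK cells. The NK, T cell and gamma delta T cell marker sums were lower in these barcodes, and those of the other cell types were higher. These barcodes were also shallow, and the parts of depth and cell content in the differences were not tested.

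Among the NK cells themselves, those with a UMI of the cell cycle genes Mki67 or Top2a held less Ccl5 and Ccl4. Cells with a Mki67 or Top2a UMI numbered 129 in PTIR1 and 88 in mock, with medians of 14628 and 11759.5 UMIs, against 7823 and 5748.5 UMIs in the 259 PTIR1 and 178 mock cells without. Ccl5 stood at 561 CPM in cells with and 2440.2 CPM in cells without such a UMI in PTIR1, and at 1078 CPM in cells with and 4447 CPM in cells without in mock. Ccl4 stood at 703 CPM in cells with and 2021 CPM in cells without in PTIR1, and at 663 CPM in cells with and 2591 CPM in cells without in mock. The lower Ccl5 level of PTIR1 NK cells was present in both kinds of cell. The split by a UMI also splits by depth, and the part of depth was not tested.

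Cells with a Klrg1 UMI, 82 in PTIR1 and 58 in mock, held more Gzmc: 3038 CPM against 431 CPM in cells without in PTIR1, and 970.04 CPM against 79.1 CPM in mock. The 10 highest NK cells held 68.7% of the Gzmc UMIs in PTIR1 and 86.0% in mock, so few cells can set this contrast. The part of depth in the Klrg1 split was not tested. Splitting by Itga2 gave the same order in both libraries for Ccl5 but not for Gzma. In cells with both Eomes and Itga2 UMIs Ccl5 stood at 1748 CPM in PTIR1 and 3766 CPM in mock, and in cells with Eomes alone at 1243 CPM in PTIR1 and 1969.5 CPM in mock. Gzma in these 2 kinds stood at 5849.7 and 6495 CPM in PTIR1 and at 9643 and 7445 CPM in mock, in opposite order.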

How the data were processed

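The authors deposited UMI counts per gene and barcode for each library, made with Cell Ranger 5.0.0 per the file headers, and the submitters' processing notes also name Seurat 3.2.3 and the genome build mm10. The smallest deposited barcode held 500 UMIs in each library. Barcodes were kept at 200 genes, 1000 UMIs and at most 10% mitochondrial UMIs, and the gate was applied to raw counts. Library totals were 98540561 UMIs in PTIR1 and 95166611 UMIs in mock.

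Counts were summed over the cells of a gate and given as CPM. Levels of single genes without a highest cell leave out that cell's UMIs of the gene but keep its UMIs in the total. The sum of granzymes C to G without the highest cell leaves that cell out of both. Intervals, all at 95%, are Clopper-Pearson for shares, Poisson for levels and, for ratios, binomial given the sum of both counts. Genes needed at least 50 UMIs over both libraries, and past 1.5-fold was the rule of size. The ratio and interval code was tested on simulated data. Thinning drew 1000 UMIs from each cell without replacement. Gates for B cells, T cells and macrophages were set for this work.

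Named genes were the 12 highest and 12 lowest ratios by the interval end nearest to 1, without gate, mitochondrial, ribosomal and receptor segment genes and genes under 5% of the highest other class. From each list came up to 4 members past 1.5-fold in each direction and up to 4 with the most UMIs, and against Itga1 positive cells 10 in each direction. A coding fault in leaving out receptor segments was corrected after values were seen and left the 24 genes unchanged. Members and lists were chosen with earlier results of these data known, and the ranking of NK-enriched genes, the limits of 40000 UMIs and 50 granzyme UMIs, the depth bands, the splits of NK cells, the motifs and other named genes were chosen after values were seen.

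Doublets were not removed in the main values: Scrublet in scanpy 1.11.5 called 53 barcodes in PTIR1 and 0 in mock, so its threshold did not work in mock, and as an alternative the highest scores, 345 barcodes in PTIR1 and 353 in mock, were taken out. Gene locations came from GENCODE and promoters from RefSeq on GRCm38.p6. Intervals used scipy 1.17.1, alignments biopython 1.88 and plots matplotlib 3.10.9, under Python 3.11.15 with pandas 2.3.3 and numpy 2.4.6.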

Additional observations from a re-analysis of the deposited data

Results flagged for a closer look

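Among the named genes and list members, 4 were past 1.5-fold between PTIR1 and mock in NK cells and on the other side of 1 in Itga1 positive cells, with both intervals excluding 1. Gzma, within 1.5-fold in NK cells at a ratio of 0.79, stood at 1.07 (1.05 to 1.09) in Itga1 positive cells. With 1 library for each genotype the difference between the gates was not tested. The PTIR1 over mock ratio of Ccl5 was 1.33 in Itga1 positive cells and 0.57 in NK cells. That of Il7r was 1.49 in Itga1 positive cells and 0.32 in NK cells, from 91 PTIR1 and 57 mock UMIs in Itga1 positive cells and 49 PTIR1 and 87 mock UMIs in NK cells.

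The heat shock gene Hspa1a had a ratio of 5.26 in Itga1 positive cells and 0.25 in NK cells. A single cell held 60 of the 90 PTIR1 UMIs in Itga1 positive cells, and another held 115 of the 152 mock UMIs in NK cells. Hspa1b had a ratio of 3.43 in Itga1 positive cells and 0.51 in NK cells, with 57 of the 77 PTIR1 UMIs in Itga1 positive cells from 1 cell.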

How the results depend on the processing

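Of 180 values of the main results under 16 planned and 6 added alternatives, 150 stayed within their limits, 27 moved and 3 reversed. Of 2254 values of 155 single genes, 1871 stayed, 368 moved and 15 reversed. No paired analysis was possible because each genotype has 1 library, and no replicate could be left out. The causes below were not tested. The NK share ratio of kept barcodes was 0.948 at fixed depth and 1.25 with Itga1 positive cells included, and that of Ncr1 positive cells was 0.834 at fixed depth. Higher and lower genes numbered 35 and 21 at fixed depth (495 genes measured), 58 and 63 with 7 more T cell genes at 0 (294 measured in 14 PTIR1 and 9 mock cells), 540 and 670 with equal weight per cell, 662 and 713 from 20 UMIs, 124 and 159 from 100 UMIs, and 1351 and 1872 from 1 UMI in each library. Without the highest doublet scores the list median log2 ratio was 0.00 for interferon gamma and 0.35 for type I interferon genes. The type I interferon median was 0.03 with Itga1 positive cells. At fixed depth only 1 of its members was measured, at 0.04, which cannot stand for the list. With the 7 T cell genes at 0 medians were 1.11 for cytotoxic, 0.41 for MHC class I, 1.86 for immediate early and -0.83 for cell cycle genes. In this order they came from 5, 4, 8 and 5 measured members. The immediate early median was 0.06 with equal weight, and the cell cycle median 0.43 without cells above 40000 UMIs. Against Itga1 positive cells, higher genes numbered 26 at fixed depth, 79 without cells above 40000 UMIs and 69 from 100 UMIs, and lower genes 30 at fixed depth and 109 from 100 UMIs. Reversed log2 ratios were, for Ccl5, 0.20 at fixed depth and 1.57 with the T cell genes at 0. For Ccl6 they were 0.74 at fixed depth, 0.34 without the highest doublet scores, 0.20 without Csf1r and Adgre1, and 2.02 with the T cell genes at 0. Without cells above 40000 UMIs they were 0.46 for Ccnd1, 0.77 for Cdc20, 0.96 for Cenpf, 1.36 for Hmga2, 0.98 for Kif20a and 0.16 for Ly6e. Cdc20 was at 0.13 with equal weight, Hmga2 at 0.47 with Eomes required and Hspa1b at 0.21 without the highest doublet scores. Depth limits every gene near 50 UMIs and every gate step that needs a count of 0.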
